A study of Mus musculus with 16 samples.

Results

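The genes described here are 8 genes of cholesterol synthesis and its control, Hmgcs1, Idi1, Fdft1, Sqle, Lss, Cyp51, Insig1 and Srebf2. They were taken by gene symbol from a table of 43346 genes, and each of the 8 was found in it under 1 identifier. RNA was sequenced in 16 libraries of endothelial cells (ECs), the lining of blood vessels, sorted from mouse lungs as CD31+ cells lacking CD45, EpCAM and GFP. All mice were of the FVB strain and, per the study's methods, carried a Col1a1-GFP transgene, a fluorescent reporter driven by a collagen promoter, and were of both sexes. Young mice had reached 2 months of age and aged mice 18 months. Sham mice received PBS, and Bleo mice received about 1 U/kg of bleomycin, a drug that injures the lung and leads to fibrosis, into the trachea. Lungs were taken 30 days after delivery. There were 5 Young Sham, 4 Young Bleo, 3 Aged Sham and 4 Aged Bleo libraries. Per the study's text, the ECs came from lungs also used for an assay of open chromatin in which every data point was 1 mouse, while the labels do not name the animal behind each library. The p-values measure the spread between these libraries.

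Cells make cholesterol from acetyl-CoA through mevalonate, isoprenoid units, squalene and lanosterol. The transcription factor SREBP2, encoded by Srebf2, switches on nearly all enzymes of this route when sterols in the endoplasmic reticulum fall, and the INSIG proteins hold it back when sterols are plentiful. ECs can also take up cholesterol from lipoproteins that pass through them. None of the 8 genes encodes an uptake receptor, so uptake is described from a separate list.

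Total counts per library ranged from 20907113 to 71035301, and Young Sham 23 and Aged Sham 13 were the shallowest. The EC markers Pecam1, Cdh5, Kdr and Cldn5 were abundant in every library. Summed over 7 macrophage markers, normalized counts spanned 399 to 625 in Young Sham, 366 to 1007 in Aged Sham, 1097 to 4968 in Young Bleo and 2034 to 12097 in Aged Bleo, with Aged Bleo 1 (12097) and Aged Bleo 2 (7920) the highest. Siglec1 had 0 counts in 4 Young Sham and 2 Aged Sham libraries, and Marco in 3 Young Sham, 1 Young Bleo and 1 Aged Sham library. Of the 7 markers, 3 rose in Young Bleo against Young Sham and 3 in Aged Bleo against Aged Sham, with Cd68 up by 4.60 and 4.08 on the log2 scale. The summed 7 EC markers were 483678 to 521199 in Young Sham, 276133 to 407828 in Young Bleo, 421282 to 463960 in Aged Sham and 266732 to 407090 in Aged Bleo. The 7 did not move as a group in Young Bleo against Young Sham, where Cldn5 and Kdr fell (by 0.92 and 1.64 on the log2 scale) while Emcn and Erg rose (by 0.54 and 0.69). In Aged Sham against Young Sham, DESeq2 called higher 2 of 4 leukocyte markers (S100a8 and Cd79a), 1 of 6 fibroblast markers (Pdgfra), 1 of 6 dissociation and heat stress markers (Fos) and 1 of the 7 EC markers (Erg), and none of these lists had a lower call; edgeR called Fos alone. Leukocyte sums were 285 to 695 against 86.9 to 166, while fibroblast sums (6375 to 11050 against 6814 to 16151) and stress sums (48036 to 96705 against 51557 to 86805) overlapped, and the median log2 fold change of the fibroblast list was -0.26. In Young Bleo against Young Sham 4 of 6 cell cycle markers rose (Mki67, Top2a, Cdk1 and Ccnb1, by 1.63 to 2.83), as did Fos (1.89). Of the same 6 cell cycle markers, 3 rose in Aged Bleo against Young Sham, where 4 of the 6 fibroblast markers fell. In Aged Bleo against Aged Sham, DESeq2 also called Top2a (1.98) and Cdk1 (2.19) higher and Dcn (-1.56) and Cldn5 (-0.82) lower. The surfactant gene Sftpc was read at 3590 to 31558 normalized counts although Epcam stayed at 9.78 to 167. In such bulk libraries, fewer cells of a type and less RNA per cell cannot be told apart.

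None of the 8 genes passed the test in any of the 6 comparisons, by DESeq2 or by edgeR's quasi-likelihood test. To pass, a gene needed a p of 0.05 or less after Benjamini-Hochberg adjustment and a log2 fold change of 0.5 or more in either direction. Over all genes tested, the share that passed in DESeq2 was 3.36% for Aged Sham against Young Sham, 13.9% for Young Bleo against Young Sham, 5.85% for Aged Bleo against Aged Sham, 0.990% for Aged Bleo against Young Bleo and 9.73% for Aged Bleo against Young Sham. For the response of aged minus that of young mice to bleomycin (the difference of responses) it was 0.378%. In edgeR the corresponding shares were 0.862%, 9.78%, 0.797%, 0.0437%, 5.69% and 0.00546%. At an unadjusted p under 0.05, DESeq2 gave 1 of the 8 genes in Young Bleo against Young Sham, 1 in Aged Bleo against Young Bleo, 1 in the difference of responses and 0 elsewhere, and each of these was Idi1. edgeR gave 1, 1 and 0 in the same comparisons. Over all genes tested, the share at an unadjusted p under 0.05 was 14.5%, 26.9%, 19.0%, 10.5%, 22.6% and 7.79% in DESeq2 and 12.7%, 24.9%, 16.3%, 8.75% and 20.6% in edgeR, in the order of comparisons above, with 1282 of 18324 genes in edgeR for the difference of responses. In none of the 5 pairwise comparisons did any of the 8 genes have groups that did not overlap, while 8.73%, 14.8%, 12.1%, 5.02% and 10.8% of all genes did, in the order above.

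**Figure D1:**
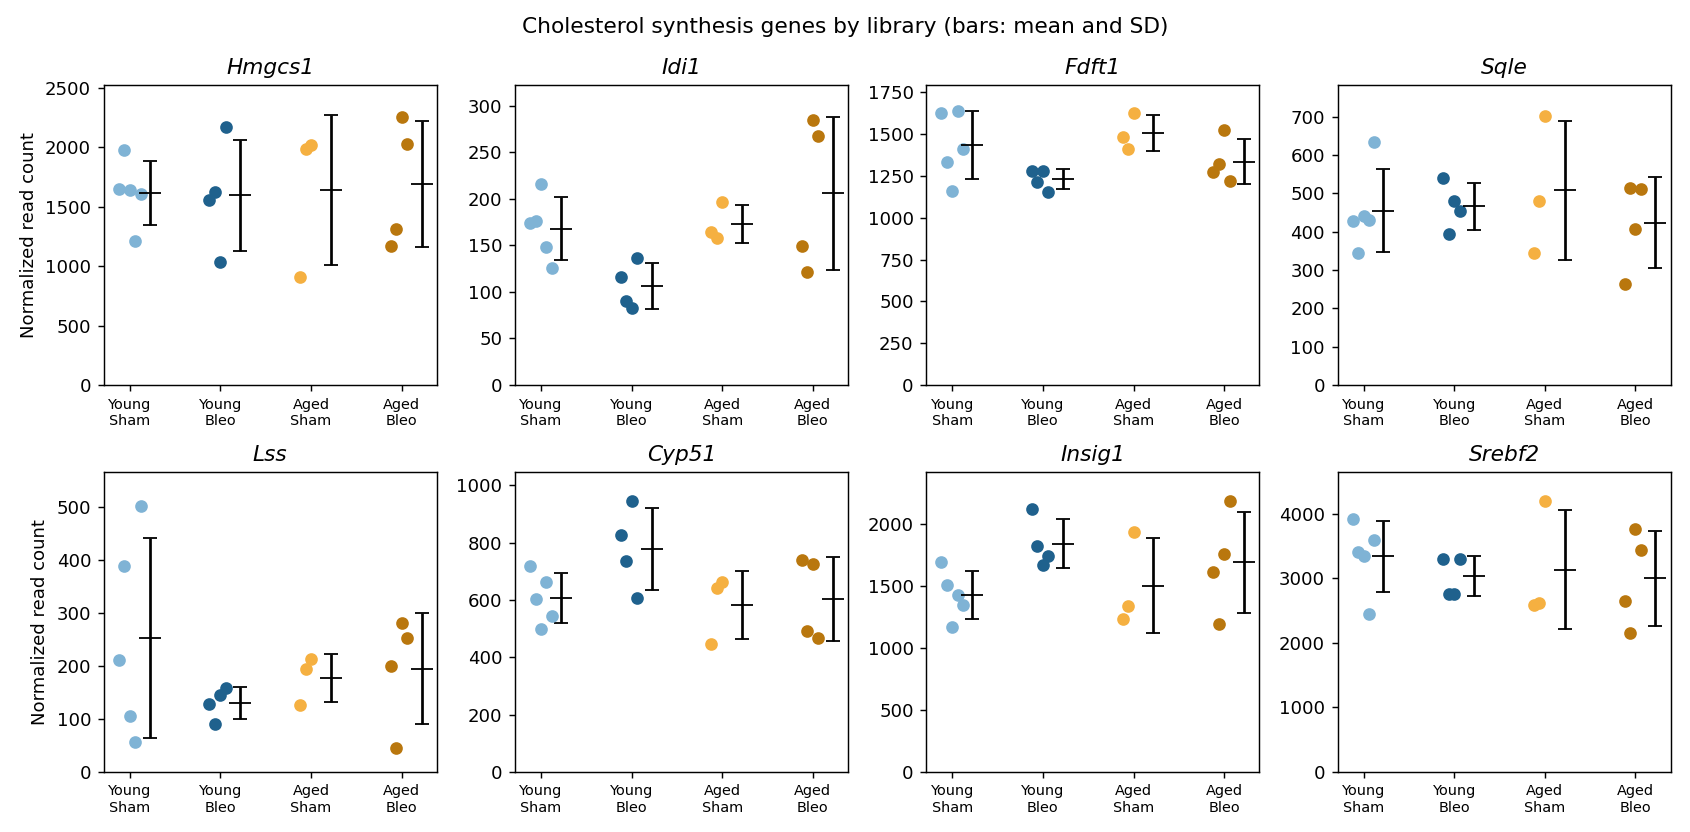
Normalized read counts (counts divided by the DESeq2 size factor, linear axis from 0) of the 8 genes in each library, with points for libraries and a bar for the mean and SD of each group. Fdft1 lies within 1155 to 1637 in all 16 libraries, whereas Lss runs from 45.7 to 502.

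Srebf2, which encodes the transcription factor that drives the route, was the most abundant of the 8 genes in normalized counts (chromosome 15, 82147266 to 82205376, mm10). Its normalized counts were 3926, 3406, 3354, 2447 and 3591 in Young Sham 21 to 25, and 3303, 2765, 2766 and 3306 in Young Bleo 17 to 20. They were 2594, 2612 and 4209 in Aged Sham 13 to 15, and 2646, 2149, 3760 and 3449 in Aged Bleo 1, 2, 3 and 5. The 4 groups overlapped, and Aged Sham 15 was the highest library. Group means ran from 3001 ± 737 (SD, n = 4) in Aged Bleo to 3345 ± 549 (SD, n = 5) in Young Sham. The log2 fold change in Young Bleo against Young Sham was -0.14 (95% confidence interval -0.54 to 0.26), and in Aged Bleo against Aged Sham -0.07 (-0.52 to 0.39). For Aged Sham against Young Sham it was -0.09 (-0.52 to 0.34). The precursor of miR-33 lies within Srebf2, and its 1 count over all libraries gave no level to describe.

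Insig1 encodes the endoplasmic reticulum protein that retains the SREBP escort SCAP and is itself a target of SREBP2 (chromosome 5, 28071363 to 28078662). Its normalized counts were 1698, 1508, 1171, 1432 and 1346 in Young Sham 21 to 25 and 2126, 1824, 1675 and 1748 in Young Bleo 17 to 20. Of the Young Bleo libraries, 3 lay above every Young Sham library, and Young Bleo 19 at 1675 lay just under the highest of them. The means were 1431 ± 195 (SD, n = 5) and 1843 ± 198 (SD, n = 4), a log2 fold change of 0.36 (95% confidence interval -0.01 to 0.73; DESeq2 adjusted p = 0.194, edgeR adjusted p = 0.211). In Aged Sham 13 to 15 the counts were 1231, 1340 and 1942, and in Aged Bleo 1, 2, 3 and 5 they were 1614, 1198, 1763 and 2192. The aged groups overlapped widely, with a log2 fold change of 0.17 (-0.25 to 0.59). The difference of the responses, aged minus young, was -0.20 (-0.76 to 0.36).

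Hmgcs1 makes HMG-CoA, the precursor of mevalonate (chromosome 13, 119690462 to 119708086). Its normalized counts were 1651, 1971, 1640, 1212 and 1605 in Young Sham 21 to 25, and 1555, 1620, 1030 and 2172 in Young Bleo 17 to 20. They were 911, 1982 and 2021 in Aged Sham 13 to 15, and 1171, 1312, 2256 and 2022 in Aged Bleo 1, 2, 3 and 5. Each group other than Young Sham held libraries both low and high in the range of the gene. The group means lay between 1594 and 1690, with SDs of 270.0 (Young Sham) to 630 (Aged Sham). Fold changes were accordingly near 0 and loosely bounded: 0.02 (95% confidence interval -0.57 to 0.61) for Aged Sham against Young Sham, -0.02 (-0.56 to 0.52) for Young Bleo against Young Sham and 0.04 (-0.57 to 0.66) for Aged Bleo against Aged Sham, all on the log2 scale.

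SREBP2 acts through short elements before the transcription start, and that sequence is shown for Hmgcs1 and for both regulators. Promoter windows from RefSeq (GRCm38.p6, the mm10 assembly) were found for 6 of the 8 genes, and Sqle and Fdft1 had no entry. In the 250 bases before the start, the letters TCACNCCA, the core of a sterol regulatory element, were searched on both strands and occurred in 2 of the 6 windows, those of Hmgcs1 and Srebf2, against 3.67% of 32851 such windows over all genes. CCAAT, the letters bound by NF-Y, occurred on either strand in all 6 windows, against 33.9%. The E-box CACGTG, which reads the same on both strands, occurred in 1 of the 6, that of Insig1, against 6.02%. A match is a description of the letters and not of binding. The windows of Idi1, Lss and Cyp51, which held no TCACNCCA match, are not shown. Each sequence below is on the plus strand, runs 5′ to 3′ and stops before the earliest annotated base of the gene, with these motifs in capitals.
Hmgcs1, chr13:119690101-119690350: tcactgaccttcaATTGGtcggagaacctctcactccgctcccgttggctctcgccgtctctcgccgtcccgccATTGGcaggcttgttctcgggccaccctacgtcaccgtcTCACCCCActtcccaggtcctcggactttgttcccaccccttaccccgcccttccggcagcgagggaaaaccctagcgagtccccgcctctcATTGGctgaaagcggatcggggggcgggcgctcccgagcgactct
Srebf2, chr15:82147019-82147180: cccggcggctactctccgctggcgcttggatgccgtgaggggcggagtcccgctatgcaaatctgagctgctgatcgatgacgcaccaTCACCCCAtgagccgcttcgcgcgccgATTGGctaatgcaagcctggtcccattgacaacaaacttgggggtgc
Insig1, chr5:28071162-28071362: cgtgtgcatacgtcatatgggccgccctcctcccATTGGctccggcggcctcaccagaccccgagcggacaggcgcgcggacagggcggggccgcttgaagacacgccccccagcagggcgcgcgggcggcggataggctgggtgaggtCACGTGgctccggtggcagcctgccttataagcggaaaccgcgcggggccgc
The TCACNCCA match of Hmgcs1 reads TCACCCCA and starts 137 bases before the RefSeq start, and that of Srebf2 reads the same and starts 162 bases before it. Hmgcs1 holds 3 CCAAT matches, all on the minus strand, and Srebf2 and Insig1 hold 1 each.

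Idi1, which interconverts the isoprenoid units IPP and DMAPP, came closest to the threshold (chromosome 13, 8885501 to 8892451). It was a low gene, with 75 to 475 raw counts per library. Libraries Young Sham 21 to 25 held 174, 176, 215, 149 and 126 normalized counts, and Young Bleo 17 to 20 held 116, 90.5, 82.7 and 137. They were 164, 158 and 196 in Aged Sham 13 to 15, and 149.8, 121, 285 and 267 in Aged Bleo 1, 2, 3 and 5. Of the Young Bleo libraries, 3 lay below every other library in the study, and the fourth, Young Bleo 20, lay above the lowest libraries of Young Sham and of Aged Bleo. Within Aged Bleo, libraries 3 and 5 were well above libraries 1 and 2.

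The mean of Idi1 fell in order from Aged Bleo (206 ± 82.4, SD, n = 4) to Aged Sham (173 ± 20.7, SD, n = 3), Young Sham (168 ± 33.4, SD, n = 5) and Young Bleo (106 ± 24.7, SD, n = 4), and each neighbouring pair in that order overlapped. In Young Bleo against Young Sham the log2 fold change was -0.65 (95% confidence interval -1.22 to -0.08; DESeq2 adjusted p = 0.113, edgeR adjusted p = 0.18). In Aged Bleo against Young Bleo it was 0.95 (0.36 to 1.54; DESeq2 adjusted p = 0.0932, edgeR adjusted p = 0.358). It was 0.25 in Aged Bleo against Aged Sham (-0.39 to 0.89; DESeq2 adjusted p = 0.766). The difference of the responses was 0.90 (0.05 to 1.75; DESeq2 adjusted p = 0.598). The comparison of the bleomycin groups rested on single libraries, since Idi1 passed in DESeq2 without Aged Bleo 2 (1.13, adjusted p = 0.0175), without Young Bleo 20 (1.09, adjusted p = 0.0382) and without Aged Bleo 1 (1.07, adjusted p = 0.0439). With Aged Bleo 1 and 2, the libraries highest in macrophage markers, left out together, it passed at 1.37 (adjusted p = 0.000175), and the difference of responses passed at 1.31 (adjusted p = 0.0233). Aged Bleo then held 2 libraries. The part of other cells in the level of Idi1 was not tested.

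Fdft1, squalene synthase, the enzyme that commits the route to sterols, was the steadiest of the 8 genes (chromosome 14, 63145153 to 63177793). Its normalized counts were 1628, 1331, 1163, 1637 and 1409 in Young Sham 21 to 25, and 1278, 1212, 1276 and 1155 in Young Bleo 17 to 20. They were 1485, 1412 and 1626 in Aged Sham 13 to 15, and 1274, 1322, 1527 and 1220 in Aged Bleo 1, 2, 3 and 5. The highest library was 1.42 times the lowest. The 4 Young Bleo libraries were close together (1230 ± 59.0, SD, n = 4), and 1 Young Sham library, 23, lay among them. The log2 fold change in Young Bleo against Young Sham was -0.22 (95% confidence interval -0.46 to 0.01; DESeq2 adjusted p = 0.219), and in Aged Bleo against Aged Sham -0.17 (-0.44 to 0.09). These intervals exclude a change of 2-fold in either direction. Fdft1 overlaps 767 bases of Ctsb on the opposite strand, and Ctsb averaged 21010 and 23280 normalized counts in Young and Aged Sham and 30358 and 38543 in Young and Aged Bleo. The strand setting of the counting was not stated, so reads of the 2 genes in the overlap may not have been separated.

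Sqle, squalene epoxidase, the oxygen-dependent second control point of the route, showed no ordering by group (chromosome 15, 59315077 to 59331192). Normalized counts of 427, 344, 441, 429 and 635 were read in Young Sham 21 to 25, and 541, 393, 480.5 and 453 in Young Bleo 17 to 20. They were 344, 479 and 703 in Aged Sham 13 to 15, and 263, 514, 407 and 510.2 in Aged Bleo 1, 2, 3 and 5. The lowest and the highest library were both from aged mice. The log2 fold change was 0.04 (95% confidence interval -0.46 to 0.53) in Young Bleo against Young Sham, 0.16 (-0.38 to 0.71) in Aged Sham against Young Sham and -0.27 (-0.83 to 0.30) in Aged Bleo against Aged Sham.

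Lss, lanosterol synthase, which closes the sterol rings, was the most variable (chromosome 10, 76531588 to 76557138). In normalized counts, Lss was at 211, 389, 105, 56.1 and 502 in Young Sham 21 to 25, and 128, 89.4, 145 and 158 in Young Bleo 17 to 20. They were 126, 194 and 212 in Aged Sham 13 to 15, and 199.9, 45.7, 281 and 253 in Aged Bleo 1, 2, 3 and 5. Young Sham alone spanned 8.93-fold, so that its mean was 253 ± 189 (SD, n = 5). Young Sham 25 was the highest library of the study and Aged Bleo 2 the lowest. In Young Bleo against Young Sham the log2 fold change was -0.96, with a 95% confidence interval of -2.04 to 0.13 (DESeq2 adjusted p = 0.261). The intervals of Lss were the widest of the 8 genes in every comparison and reached past a 2-fold change in at least one direction in each. Counting error alone accounts for a coefficient of variation of 8.83% in Young Sham, where the libraries varied by 74.8%. The antisense gene 4930483K19Rik overlaps 11268 bases of Lss and averaged 5.99 normalized counts over the 16 libraries.

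Cyp51 removes a methyl group from lanosterol and begins the route from lanosterol to cholesterol (chromosome 5, 4081145 to 4104746). The normalized counts of Cyp51 were 718, 603, 500.3, 664 and 545 in Young Sham 21 to 25, and 826, 735, 946 and 608 in Young Bleo 17 to 20. They were 446, 640.4 and 662 in Aged Sham 13 to 15, and 739, 492, 724 and 466 in Aged Bleo 1, 2, 3 and 5. In Young Bleo, 3 of 4 libraries exceeded every Young Sham library and 1, Young Bleo 20, lay within their range. The log2 fold change was 0.36 (95% confidence interval -0.04 to 0.75; DESeq2 adjusted p = 0.245, edgeR adjusted p = 0.267). The estimate was -0.36 in Aged Bleo against Young Bleo (-0.78 to 0.05; DESeq2 adjusted p = 0.582), and in Aged Bleo against Aged Sham 0.05 (-0.40 to 0.50).

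**Figure D2:**
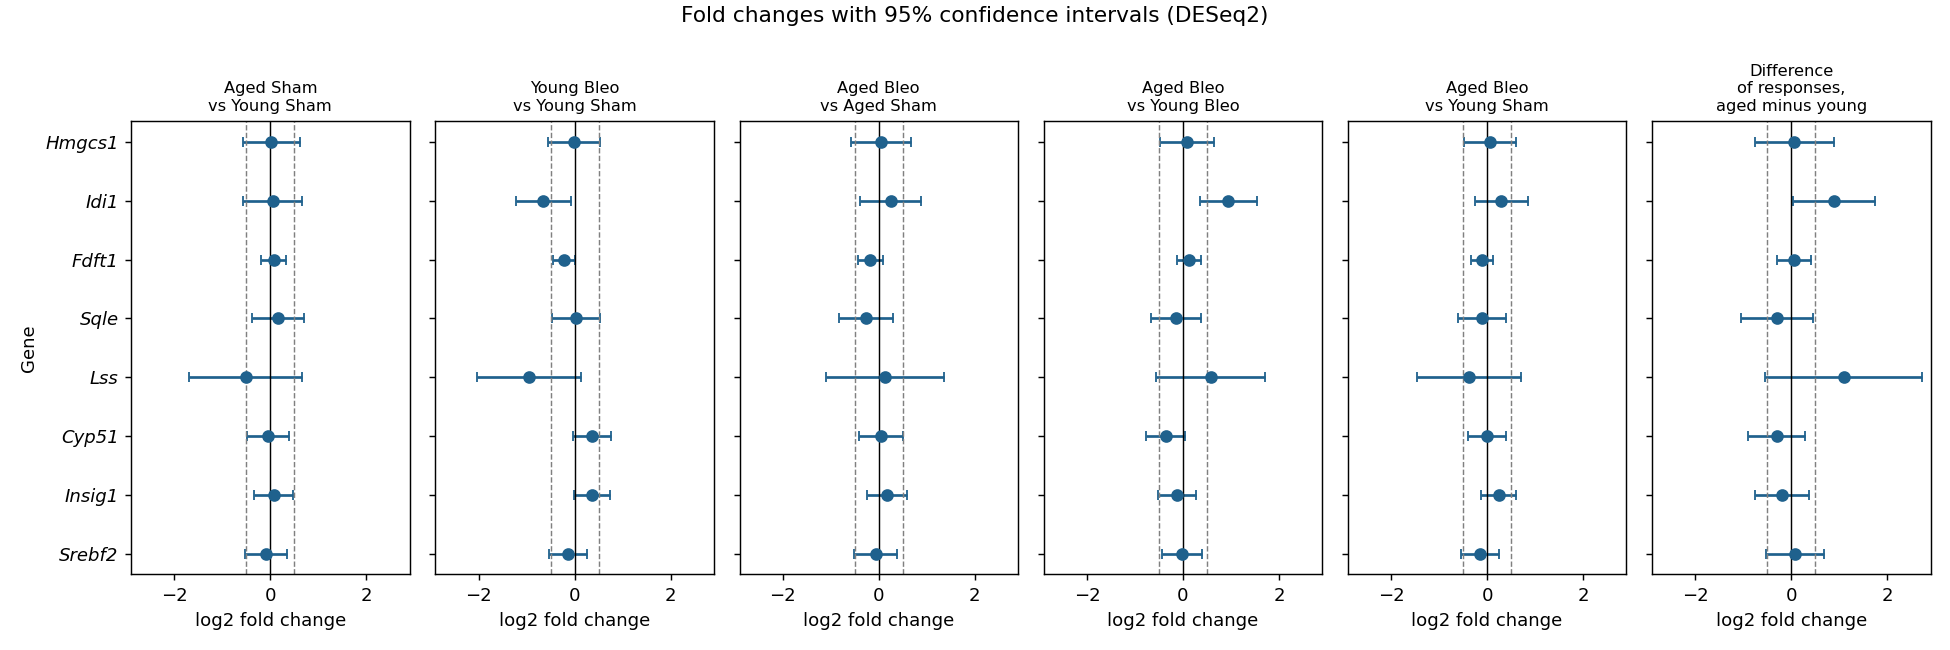
Log2 fold changes of the 8 genes from DESeq2 (points) with 95% confidence intervals (bars), 1 panel per comparison, with dashed lines at the threshold of 0.5 either way. Lss has the widest interval and Fdft1 the narrowest in each panel, and the intervals of Idi1 leave 0 in 3 of the 6 panels without passing after adjustment.

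Within Young Bleo against Young Sham, estimates pointed up for 3 of the 8 genes (Insig1, Cyp51 and Sqle) and down for 5. The median log2 fold change of the 8 genes was -0.08, beside 0.01 over all genes tested. For Aged Bleo against Aged Sham it was 0.05 beside 0.01, for Aged Sham against Young Sham 0.03 beside 0.02, and for Aged Bleo against Young Bleo 0.03 beside 0.02. For Aged Bleo against Young Sham it was -0.05 beside 0.02, and for the difference of responses 0.06 beside 0.01. These comparisons share control libraries. The intervals lay wholly inside a 2-fold change in either direction for 7 of 8 genes in Aged Sham against Young Sham, 6 in Young Bleo against Young Sham, 7 in Aged Bleo against Aged Sham, 6 in Aged Bleo against Young Bleo, 7 in Aged Bleo against Young Sham and 5 for the difference of responses. The genes outside these bounds were Lss in each comparison, Idi1 in 3 of them and Sqle in the difference of responses.

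Levels between genes were compared per length, as FPKM, in which fragments are divided by gene length and library size. By the mean over all libraries, the order was Srebf2 (6.18 FPKM), Insig1 (5.86), Hmgcs1 (4.97), Fdft1 (4.67), Cyp51 (1.47), Sqle (0.809), Idi1 (0.455) and Lss (0.177). Each neighbouring pair in this order overlapped across libraries, except Fdft1 and Cyp51. The 4 most abundant genes lay above 62.5% to 68.7% of the 13774 genes that averaged 50 normalized counts or more, and Lss above 3.65%. The deposited length of Lss was 10787 bases, against 4667 for its longest coding transcript in GENCODE M21, which lowers its FPKM. That of Sqle was 5546 against 2758.

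The genes also differed in how much replicates of a group scattered. The pooled within-group SD of log2(normalized count + 1) was 0.99 for Lss, 0.44 for Hmgcs1, 0.39 for Idi1, 0.37 for Sqle, 0.30 for Srebf2, 0.28 for Cyp51, 0.27 for Insig1 and 0.15 for Fdft1, beside a median of 0.34 over those 13774 genes. Among genes within 1.5-fold of its own mean count, Lss scattered more than 88.7%, Hmgcs1 more than 88.3% and Fdft1 more than 3.53%.

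Several pairs of the genes were positively correlated between libraries of the same group, none of them past the threshold after adjustment. After the group mean was removed from each gene's log2 value, Srebf2 correlated with Insig1 (Pearson r = 0.74, permutation p = 0.0158; Spearman rho = 0.72, permutation p = 0.0151), with Idi1 (r = 0.71, p = 0.00926; rho = 0.70, p = 0.0141), with Lss (r = 0.70, p = 0.00305; rho = 0.58, p = 0.0196) and with Hmgcs1 (r = 0.67, p = 0.027; rho = 0.66, p = 0.0268). Hmgcs1 and Idi1 correlated at r = 0.65 (permutation p = 0.0173; rho = 0.69, p = 0.0123), and Fdft1 and Cyp51 at r = 0.61 (permutation p = 0.0125; rho = 0.48, p = 0.0781). These were two-sided permutation tests over 16 libraries, with libraries permuted within their group. Of the 28 pairs examined, 22 had a positive r. The median r of all 28 pairs was 0.34, and none passed after Benjamini-Hochberg adjustment (lowest adjusted permutation p = 0.0854 for r and 0.137 for rho). Without the 2 libraries farthest from the median of the first gene, r was 0.64 for Insig1 with Srebf2, 0.55 for Idi1 with Srebf2, 0.41 for Lss with Srebf2, 0.68 for Hmgcs1 with Srebf2, 0.72 for Hmgcs1 with Idi1 and 0.58 for Fdft1 with Cyp51. The median r to the other 7 genes was 0.14 for Fdft1, 0.15 for Sqle and 0.16 for Cyp51, beside 0.67 for Srebf2. In the 9 young and the 7 aged libraries, r was 0.31 and 0.91 for Insig1 with Srebf2, 0.40 and 0.86 for Idi1 with Srebf2, 0.69 and 0.76 for Lss with Srebf2, 0.62 and 0.70 for Hmgcs1 with Srebf2, 0.64 and 0.66 for Hmgcs1 with Idi1, and 0.78 and 0.46 for Fdft1 with Cyp51. The difference between the ages was not tested.

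**Figure D3:**
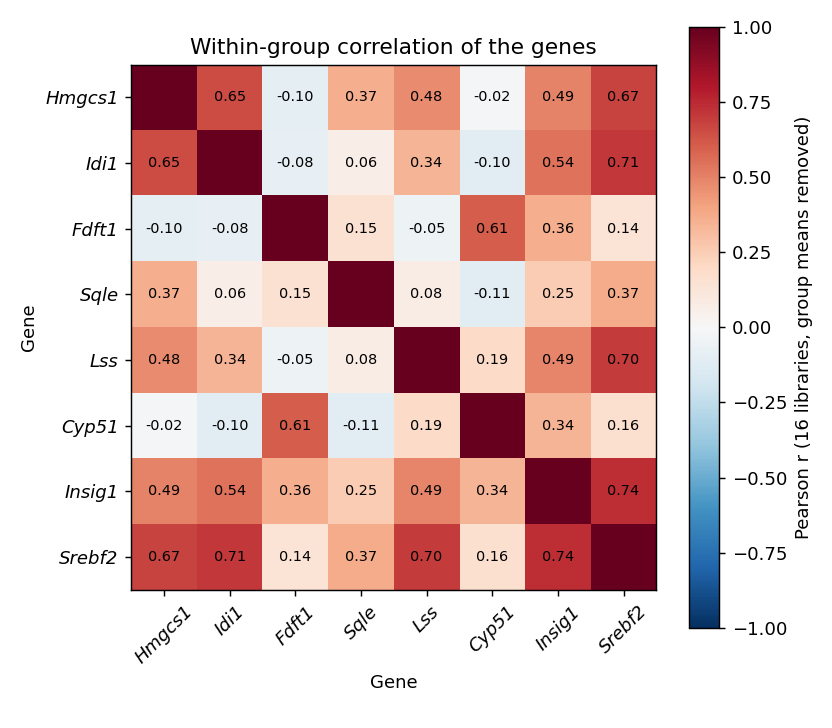
Pearson r between each pair of the 8 genes over 16 libraries, computed on log2(normalized count + 1) after the group means were removed, from -1 (blue) to 1 (red). The Srebf2 row holds the 4 highest values, 0.67 to 0.74, and 6 of the 28 pairs are below 0, the lowest at -0.11.

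Averaged as z-scores over the 8 genes, the libraries highest in these genes were Aged Sham 15 (1.03), Aged Bleo 3 (0.84) and Young Sham 21 (0.55), and the lowest were Aged Bleo 2 (-0.94), Aged Sham 13 (-0.80) and Aged Bleo 1 (-0.45). The extremes at both ends came from aged mice. Aged Sham 13 was among the shallowest libraries (23734837 counts), whereas Aged Bleo 2 (59681431 counts) was among the deepest. Within Aged Bleo, libraries 1 and 2 had macrophage marker sums of 12097 and 7920, and libraries 3 and 5 of 2154 and 2034. The same libraries also divided in the sums of EC markers (266732 and 276090 against 407090 and 344519), epithelial markers (12445 and 6791 against 19338 and 30893), cell cycle markers (6107 and 6510 against 3872 and 3769) and dissociation and heat stress markers (72242 and 42398 against 109379 and 86781). Leukocyte and fibroblast marker sums of the pairs overlapped. Each sum is weighted toward the most abundant markers of its list, such as Cldn5 for ECs and Sftpc for epithelium. The part of any of these in the split was not tested. Of 13766 other genes above the same level, the 10 whose log2 values followed this average most closely over 16 libraries were Lonp2 (r = 0.83), Anxa11 (0.82), Mpp3 (0.82), Trmt2a (0.82), Psmd5 (0.82), Gss (0.80), Chkb (0.80), Slc35d2 (0.80), Spata7 (0.80) and Idh3a (0.79), all as Pearson r. Among them, none was on the lists of sterol or fatty acid genes below.

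Of 14 further enzymes of sterol synthesis, 1 fell in Aged Bleo against Aged Sham, 1 fell in Aged Bleo against Young Sham, and 0 passed in the other 4 comparisons. In edgeR 0 of the 14 passed in any comparison. At an unadjusted p under 0.05, DESeq2 gave 5 of the 14 in Young Bleo against Young Sham, 4 in Aged Bleo against Aged Sham, 4 in Aged Bleo against Young Sham and 0 elsewhere, and edgeR gave 5, 4 and 3, beside 26.9%, 19.0% and 22.6% of all genes in DESeq2. The gene that passed was Mvk, mevalonate kinase, in both comparisons. Mvk was read at 1179, 1080.05, 1124, 1153 and 1099 normalized counts in Young Sham 21 to 25, and at 845, 1063, 758 and 909 in Young Bleo 17 to 20. It was read at 1279, 1123 and 1329.7 in Aged Sham 13 to 15, and at 840.5, 753, 969 and 618.04 in Aged Bleo 1, 2, 3 and 5. In both ages every Bleo library lay below every Sham library. EC marker sums were also lower, and macrophage marker sums higher, in every Bleo library than in every Sham library of the same age. The part of these markers in the level of Mvk was not tested. Mvk fell by 0.64 on the log2 scale in Aged Bleo against Aged Sham (DESeq2 adjusted p = 0.00343, edgeR adjusted p = 0.0656) and by 0.50 against Young Sham (DESeq2 adjusted p = 0.00674, edgeR adjusted p = 0.0512). The estimate for Mvk in Young Bleo against Young Sham was -0.33 (DESeq2 adjusted p = 0.0896, edgeR adjusted p = 0.161). The call against Aged Sham held in 7 of 7 omissions of a single library and the one against Young Sham in 5 of 9. Neither passed without Aged Bleo 1 and 2 (-0.65, adjusted p = 0.0978, and -0.50, adjusted p = 0.158).

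Of the 5 genes that process SREBPs or are their paralogs (Srebf1, Scap, Insig2, Mbtps1 and Mbtps2), 0 passed in each of the 6 comparisons in DESeq2 and in edgeR. At an unadjusted p under 0.05, both tools gave 1 of the 5 in Aged Sham against Young Sham, 2 in Young Bleo against Young Sham and 0 elsewhere.

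Of 9 genes of sterol uptake and transport, 1 rose in Young Bleo against Young Sham and 0 passed in the other 5 comparisons. At an unadjusted p under 0.05, both tools gave 4 of the 9 in Aged Bleo against Aged Sham, where 19.0% of all genes in DESeq2 reached it, 2 in Young Bleo against Young Sham, 0 in Aged Bleo against Young Bleo and 1 in each of the others. The gene that passed was Stard4, which carries cholesterol between membranes. Stard4 was read at 602, 721, 656, 1073 and 764 normalized counts in Young Sham 21 to 25, and at 1421, 1398, 1883 and 1165 in Young Bleo 17 to 20, without overlap. It was read at 573, 419.99 and 727 in Aged Sham 13 to 15, and at 1592, 1699.6, 569 and 758 in Aged Bleo 1, 2, 3 and 5. Within Aged Bleo, libraries 3 and 5 were near the Aged Sham range and libraries 1 and 2 far above it. Stard4 rose by 0.94 ± 0.31 (SE) on the log2 scale in Young Bleo against Young Sham (DESeq2 adjusted p = 0.0182, edgeR adjusted p = 0.047), and was lost without Young Bleo 19 (0.80, adjusted p = 0.0981) and without Young Sham 21 (0.87, adjusted p = 0.0564). In Aged Bleo against Aged Sham its log2 fold change was 1.01 (DESeq2 adjusted p = 0.0582, edgeR adjusted p = 0.142). In Aged Bleo against Young Bleo it was -0.35 with all libraries (DESeq2 adjusted p = 0.815), and it passed at -1.15 without Aged Bleo 1 and 2 (adjusted p = 0.00311).

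**Figure D4:**
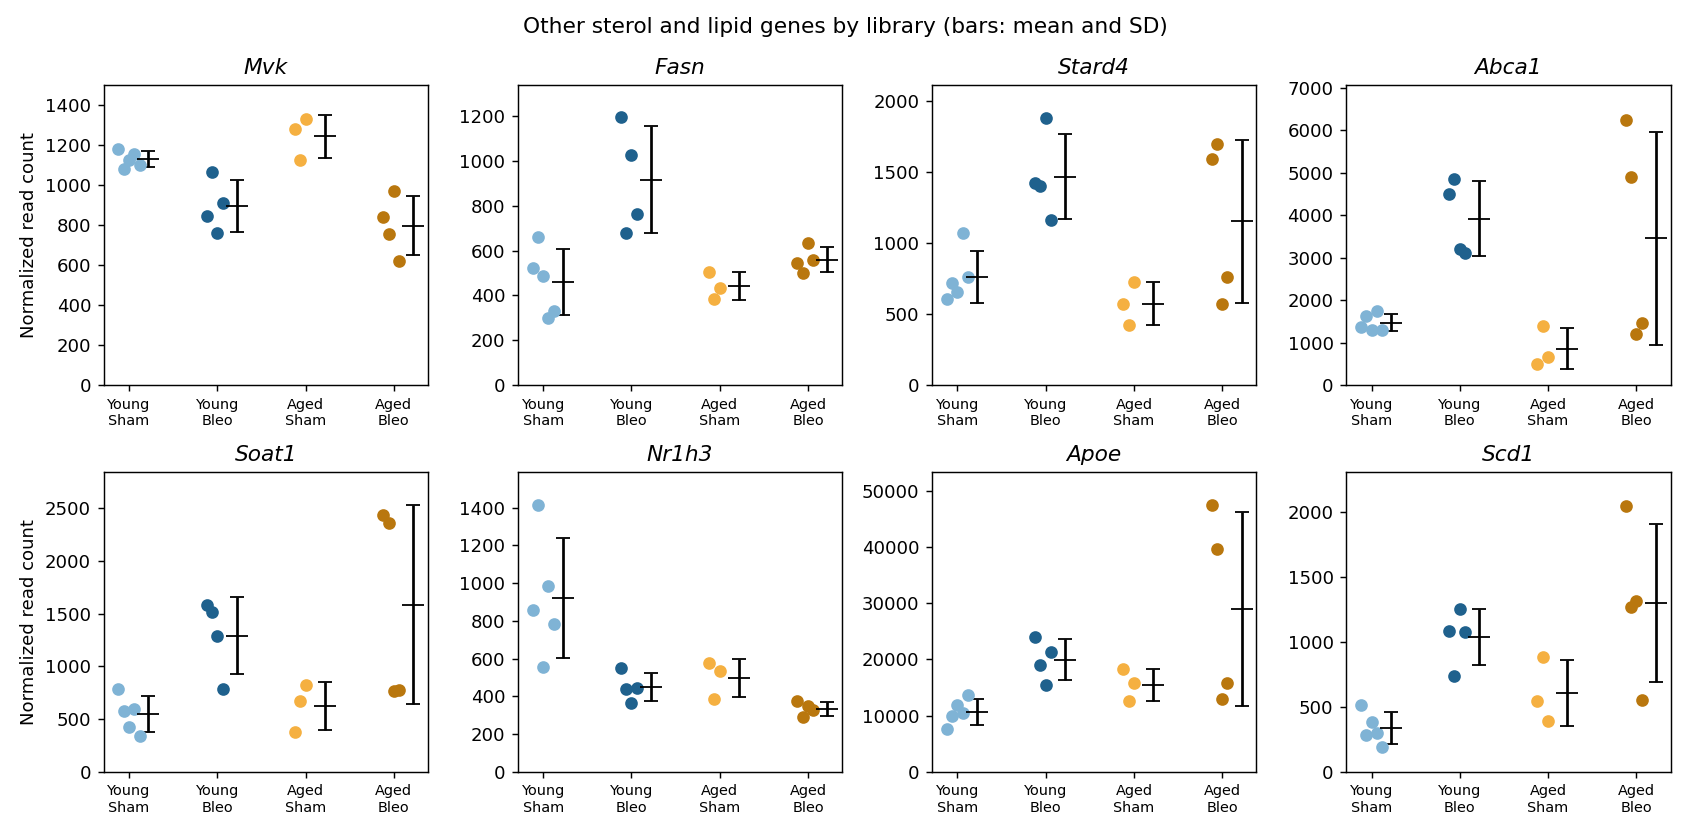
Normalized read counts (linear axes from 0) of 8 other sterol and lipid genes in each library, with points for libraries and bars for the mean and SD of each group. Abca1, Soat1, Apoe and Stard4 are high in Aged Bleo 1 and 2 and lower in Aged Bleo 3 and 5, whereas Nr1h3 is at 288 to 375 in all 4 Aged Bleo libraries.

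Of 8 genes of sterol efflux, storage and oxysterols, 3 rose and 1 fell in Young Bleo against Young Sham, 2 rose in Aged Bleo against Aged Sham, 4 rose and 1 fell in Aged Bleo against Young Sham, and 1 fell in Aged Sham against Young Sham. Abca1, which exports cholesterol to apolipoproteins, was at 1290 to 1737 normalized counts in Young Sham and at 3111 to 4841 in Young Bleo, without overlap (log2 fold change 1.41 ± 0.41, SE, DESeq2 adjusted p = 0.00643, edgeR adjusted p = 0.036). In Aged Bleo 1, 2, 3 and 5 it was at 6249, 4901, 1203 and 1472, against 506, 1401 and 663 in Aged Sham 13 to 15. Soat1, which esterifies cholesterol for storage, was at 2439.9, 2363, 769 and 776 in the same Aged Bleo libraries, and Apoe, a lipoprotein component that macrophages secrete, at 47452, 39633, 12900 and 15829. These libraries split in the same pairs in the marker sums of macrophages, ECs, epithelium, cell cycle and stress given above. Against Aged Sham, Abca1 rose in Aged Bleo by 2.01 (DESeq2 adjusted p = 0.00142, edgeR adjusted p = 0.0575) and Soat1 by 1.35 (DESeq2 adjusted p = 0.036, edgeR adjusted p = 0.131), calls that held in 7 and 3 of 7 omissions of a single library, and without Aged Bleo 1 and 2 the values were 0.64 and 0.31 and neither passed. Against Young Sham, the log2 fold change of Abca1 in Aged Bleo was 1.24 with all libraries and -0.13 without Aged Bleo 1 and 2, that of Soat1 1.54 and 0.51, and that of Apoe 1.44 and 0.43. All 3 passed in DESeq2 with all libraries and none without these 2. In that smaller fit Abca1 passed as lower in Aged Bleo than in Young Bleo (-1.55, adjusted p = 0.000366), and Apoe passed in the difference of responses (-1.01, adjusted p = 0.0467). With all libraries, the adjusted p for Abca1 was 0.0288 in DESeq2 and 0.0863 in edgeR, and its call was lost in 5 of 9 omissions of a single library, without Aged Bleo 1 (0.78, adjusted p = 0.287), Aged Bleo 2 (1.02, adjusted p = 0.168), Young Sham 21 (1.21, adjusted p = 0.0636), Young Sham 23 (1.19, adjusted p = 0.0644) or Young Sham 25 (1.19, adjusted p = 0.07). Those of Soat1 and Apoe held in 9 of 9 (edgeR adjusted p = 0.0232 and 0.0136). Soat1 and Apoe also rose in Young Bleo against Young Sham, by 1.25 (DESeq2 adjusted p = 0.0106, edgeR adjusted p = 0.042; held in 7 of 9 omissions) and 0.90 (DESeq2 adjusted p = 0.0359, edgeR adjusted p = 0.0757; held in 3 of 9). In Young Bleo, library 20 was the lowest in Abca1 (3111) and Soat1 (785) but not in Apoe. Apoe was at 21275 there and lowest in library 19 (15485). Library 20 had the lowest macrophage (1097) and cell cycle (4320) marker sums of its group. It also had the highest EC (407828), fibroblast (13845) and stress (82048) marker sums. The part of any of these markers in Abca1, Soat1 or Apoe was not tested. Ch25h, which makes an oxysterol, passed in Aged Bleo against Young Sham alone (0.99, DESeq2 adjusted p = 0.0316, edgeR adjusted p = 0.0776; held in 5 of 9). It was lost without Aged Bleo 2 (0.73, adjusted p = 0.22), the highest library of that group, without Young Sham 21, 22 or 23 (0.86 to 0.94, adjusted p = 0.0739 to 0.0966), and without Aged Bleo 1 and 2 together (0.78, adjusted p = 0.409).

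Nr1h3, the sterol-sensing receptor LXR-alpha, moved the other way. It was at 860, 1417, 558, 987 and 782 normalized counts in Young Sham 21 to 25 and at 551, 437, 367 and 446 in Young Bleo 17 to 20, without overlap. It was at 575, 385 and 535 in Aged Sham 13 to 15 and at 375, 288, 348 and 327 in Aged Bleo 1, 2, 3 and 5. It fell in Young Bleo against Young Sham by 1.03 (DESeq2 adjusted p = 0.000339, edgeR adjusted p = 0.0117), and in Aged Bleo against Young Sham by 1.46 (DESeq2 adjusted p = 1.25e-07, edgeR adjusted p = 0.00297), also without Aged Bleo 1 and 2 (-1.45, adjusted p = 0.000535). In Aged Sham against Young Sham it fell by 0.89 (DESeq2 adjusted p = 0.0227, edgeR adjusted p = 0.113) and held in 4 of 8 omissions of a library. Leukocyte and EC marker sums also separated Young Sham from each of these groups, and macrophage marker sums separated it from both Bleo groups. The part of these markers in the results for Nr1h3 was not tested.

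Of 10 genes of fatty acid synthesis, the branch driven by the paralog SREBP1, 3 rose and 1 fell in Young Bleo against Young Sham, 2 rose and 1 fell in Aged Bleo against Young Sham, and 1 rose in each comparison of aged with young mice under the same treatment. Scd1, a stearoyl-CoA desaturase, was at 193 to 516 normalized counts in Young Sham and 740 to 1251 in Young Bleo, a rise of 1.63 (DESeq2 adjusted p = 0.000127, edgeR adjusted p = 0.00824). Fasn, fatty acid synthase, rose by 1.00 (DESeq2 adjusted p = 0.000738, edgeR adjusted p = 0.0128), Scd2 by 0.76 (DESeq2 adjusted p = 0.0413, edgeR adjusted p = 0.0777; held in 2 of 9 omissions), and Elovl6, a fatty acid elongase, fell by 1.24 (DESeq2 adjusted p = 6.96e-05, edgeR adjusted p = 0.00876). Me1, which supplies NADPH for lipid synthesis, was at 179 to 322 in Young Sham and at 402, 875 and 1034 in Aged Sham 13 to 15, without overlap, and rose by 1.72 (DESeq2 adjusted p = 0.00113, edgeR adjusted p = 0.0377). Me1 also rose by 1.31 in Aged Bleo against Young Bleo (DESeq2 adjusted p = 0.046, edgeR adjusted p = 0.28), which held in 3 of 8 omissions of a library and not, for example, without Aged Bleo 3 (1.07, adjusted p = 0.254). Without Aged Bleo 1 and 2 together, Me1 passed at 1.74 (adjusted p = 0.00214) and Scd2 passed as lower (-0.87, adjusted p = 0.0213) in this comparison. It rose by 1.09 in Aged Bleo against Young Sham (DESeq2 adjusted p = 0.0263, edgeR adjusted p = 0.0743), where Scd1 rose by 1.95 (DESeq2 adjusted p = 3.15e-06, edgeR adjusted p = 0.00478) and Elovl6 fell by 0.73 (DESeq2 adjusted p = 0.0445, edgeR adjusted p = 0.115). Of these, Scd1 held in 9 of 9 omissions and Me1 and Elovl6 in 3 of 9. Without Aged Bleo 1 and 2, Me1 (1.51, adjusted p = 0.016) and Scd1 (1.48, adjusted p = 0.0216) passed and Elovl6 did not (-0.62, adjusted p = 0.42). Between the sham groups, leukocyte, fibroblast, EC and stress markers also had calls in DESeq2. In both Bleo groups against Young Sham, macrophage, leukocyte, EC, epithelial, cell cycle and stress markers had calls. Of the 4 leukocyte markers, 2 rose in each of these, and fibroblast markers fell in Aged Bleo. In Aged Bleo against Young Bleo, the EC marker Emcn and the fibroblast marker Dcn fell. The part of these marker changes in the results for fatty acid genes was not tested.

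Over the 46 genes of these 5 lists, 2 passed in Aged Sham against Young Sham, 9 in Young Bleo against Young Sham, 3 in Aged Bleo against Aged Sham, 1 in Aged Bleo against Young Bleo, 9 in Aged Bleo against Young Sham and 0 in the difference of the responses. As shares of genes these are to be read beside the shares over all genes given above. For the difference of responses, 2 of the 46 had an unadjusted p under 0.05 in DESeq2 and 2 in edgeR. A gene that passed in young and not in aged mice, such as Stard4, was therefore not shown to respond differently with age.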

How the data were processed

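RNA was sequenced in 16 libraries of sorted lung ECs. Per the submitters' processing notes and the study's methods, the authors mapped reads to mm10 with STAR 2.5.2b and obtained gene counts from featureCounts of Subread. The library kit is given differently in the labels (SMART-Seq v4 with Nextera) and the methods (TruSeq with poly(A) selection). The deposited table holds raw counts and FPKM values that the authors computed, for each of 43346 genes. No column belonged to other samples. The annotation release, strand setting and rule for reads with several matches are not given in the sources used here.

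All genes and all 16 libraries entered 1 DESeq2 model (1.42.0, R 4.3.3) with group as its term, Wald tests, no shrinkage of fold changes and the default scaling and filters, as the study's methods name that tool. The thresholds were an adjusted p of 0.05 and a log2 fold change of 0.5 in either direction. The quasi-likelihood test of edgeR (4.0.16) was run beside it, and limma (3.58.1) with voom, or on log2(FPKM + 0.1) and log2(FPKM + 1), as alternatives. Confidence intervals are 95% Wald intervals. The scripts were tested on simulated data. Replicate pairs differed by more than sampling noise (chi-square per degree of freedom 35.1 to 459), so each library counted as 1. The 8 genes and all gene lists were chosen with earlier results of these data known. Named were the 8 genes in every comparison, every gene of the 5 sterol and lipid lists that passed in any comparison (at most 8 per list) and the 10 genes most alike. Some genes of these lists are not reported here and entered none of the list counts. Adgre1 was matched by its identifier.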

Additional observations from a re-analysis of the deposited data

Results flagged for a closer look

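Within groups of 4 or 5 libraries, the 8 genes and the sterol and lipid genes that passed in any comparison were examined for a library far from the others by Dixon's criterion, in 60 groups, of which chance alone is expected to mark about 5%. None of the 8 genes was marked in any group. Ch25h was marked in Aged Bleo, where Aged Bleo 2 was read at 3009 normalized counts and the other 3 libraries at 1575 to 1817.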

How the results depend on the processing

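No paired analysis was possible because the replicate numbers do not repeat between groups. The 8 genes were refitted under each alternative, which gave 904 log2 fold changes. Of these, 5 passed the threshold, all for Idi1, and 86 had the other sign, none of them past the threshold and none from an original estimate beyond 0.38. The number of the 8 genes that passed in Aged Bleo against Young Bleo ranged from 0 to 1 when single libraries were left out. With Aged Bleo 1 and 2 left out together, an alternative chosen after seeing the data, it was 1 there and 1 in the difference of responses. In the other comparisons and alternatives it stayed at 0.

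The counts over the 46 sterol and lipid genes depended more on the tool. In Aged Sham against Young Sham the 2 became 1 in edgeR and with the 2 groups alone and 0 in limma voom and in limma on either FPKM scale, and ranged from 1 to 2 over single omissions. In Young Bleo against Young Sham the 9 became 5 in voom and 4 on log2(FPKM + 1), and from 6 to 10 over omissions. In Aged Bleo against Aged Sham the 3 became 0 in edgeR, voom and on both FPKM scales, 5 with TMM scaling, 1 with the 2 groups alone and 0 without Aged Bleo 1 and 2, and from 2 to 7 over omissions, the highest without Aged Bleo 5. In Aged Bleo against Young Bleo the 1 became 0 in edgeR, voom, both FPKM scales, without the DESeq2 filters and with the 2 groups alone, was 4 without Aged Bleo 1 and 2, and ranged from 0 to 1 over omissions. In Aged Bleo against Young Sham the 9 became 4 in edgeR and voom, 5 and 3 on the FPKM scales (pseudocounts 0.1 and 1) and 3 without Aged Bleo 1 and 2, and from 5 to 10 over omissions. The difference of responses went from 0 to 1 (Apoe) without Aged Bleo 1 and 2. Fewer libraries enter the omissions, and the cause of the other shifts was not tested. Against DESeq2, log2(FPKM + 0.1) moved the median of all genes by -0.14 in Aged Sham against Young Sham and 0.12 in Aged Bleo against Aged Sham. Omitting Young Sham 23 and Aged Sham 13, the shallowest libraries, also chosen after seeing the data, left 0 of the 8 genes past the threshold. For the 2 genes of lowest counts, counting error gave a coefficient of variation by group of 6.29% to 9.61% for Idi1 and 7.31% to 8.96% for Lss, where libraries varied by 11.98% to 40.1% and 23.0% to 74.8%.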
